A study of Mus musculus with 4 samples.

Results

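Part of the topoisomerase IIβ (TOP2B) peaks called with the Santa Cruz antibody in mouse thymocytes lay in a small set of densely occupied stretches of the genome. Chromosomes 1 to 19 of the mm9 genome were cut into 24731 bins of 100 kb, and 332 of them (1.34%) held 5 or more peaks obtained with the Santa Cruz antibody. These dense bins were selected on the Santa Cruz peak counts themselves, so the Santa Cruz density in them describes the choice and was not tested. They held 1850 of the 17391 Santa Cruz peaks on these chromosomes (10.6%), out of 17754 in the whole list. Neighbouring dense bins were merged into 308 domains. Of these, 285 were single bins, 22 joined 2 bins and 1 joined 3 bins.

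The study mapped TOP2B by chromatin immunoprecipitation and sequencing (ChIPseq). The thymocytes came from C57BL/6 mice of wild-type genotype, aged 4 to 6 weeks. One library was made with each of 2 TOP2B antibodies, Santa Cruz sc13059 and Novus NB100-40842, and both peak lists were called over the same IgG library. The number of animals behind each library is not given in the sources used here. A TOP2A library, the IgG library and read-level signal were not analysed here. With 1 library per antibody there was no spread between replicates, so no p-value was computed. Intervals are exact 95% intervals that cover counting error only, and peaks or genes of the same bin are not independent of each other.

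Type II topoisomerases relieve torsional stress by cutting both DNA strands, passing another duplex through the gap and resealing it. TOP2B is the form present in cells that are not dividing, and it is known for acting at promoters, at enhancers and at the chromatin loop anchors where the insulator protein CTCF and cohesin lie. Thymocytes are developing T cells that assemble their antigen receptor genes by V(D)J recombination, signal through the pre-T-cell and T-cell receptors and then undergo selection for survival or death.

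The sequences below are read from the mm9 plus strand. They come from Santa Cruz peaks of dense domains that overlapped a Novus peak by at least 1 bp. Among the domains that are described by name, 15 held such a shared peak. In each, the one with the fewest mismatches to the CTCF core motif was chosen for display. In 3 of the 15 it carried that core with at most 1 mismatch in 12 bases. Being chosen for the motif, these peaks give no rate of it among shared peaks. In those 3 sequences the capitals mark the CTCF core.
Prkch domain, chr12:74635661-74635847: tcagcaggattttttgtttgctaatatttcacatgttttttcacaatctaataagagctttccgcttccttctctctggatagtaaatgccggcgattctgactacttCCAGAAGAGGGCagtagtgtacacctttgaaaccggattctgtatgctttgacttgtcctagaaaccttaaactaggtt
H2-Oa to H2-Ob domain, chr17:34238456-34238642: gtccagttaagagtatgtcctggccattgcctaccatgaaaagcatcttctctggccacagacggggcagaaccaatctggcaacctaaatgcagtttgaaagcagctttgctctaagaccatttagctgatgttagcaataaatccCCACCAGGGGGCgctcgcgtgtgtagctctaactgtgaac
Lat domain, chr7:133467387-133467573: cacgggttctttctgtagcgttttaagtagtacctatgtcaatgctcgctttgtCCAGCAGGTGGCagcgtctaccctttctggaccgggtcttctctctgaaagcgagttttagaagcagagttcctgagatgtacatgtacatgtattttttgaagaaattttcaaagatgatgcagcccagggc
The core matched without mismatch in the H2-Oa to H2-Ob domain and in the Lat domain, and with 1 mismatch in the Prkch domain. The stretch shared with the Novus peak was 15 bp in the Prkch domain and 11 bp in the H2-Oa to H2-Ob domain. In both, the core lay outside that stretch. In the Lat domain 60 bp were shared, and only part of the core lay within them. All 3 peaks lay between genes. The first was 11.6 kb from the start of Tmem30b, a flippase subunit gene, the second 9.26 kb from H2-Oa, an MHC class II chaperone gene, and the third 24.0 kb from Gm10155.

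Shared peaks without a match to the core stood in the neighbourhoods of Satb1 and Rasgrp1, among others, and these 2 are shown for contrast, in lower case throughout.
Satb1 domain, chr17:52018508-52018694: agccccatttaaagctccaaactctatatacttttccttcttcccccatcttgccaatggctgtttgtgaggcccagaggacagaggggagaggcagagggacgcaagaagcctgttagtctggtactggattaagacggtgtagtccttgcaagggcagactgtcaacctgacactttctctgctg
bin beside Rasgrp1, chr2:117266823-117267009: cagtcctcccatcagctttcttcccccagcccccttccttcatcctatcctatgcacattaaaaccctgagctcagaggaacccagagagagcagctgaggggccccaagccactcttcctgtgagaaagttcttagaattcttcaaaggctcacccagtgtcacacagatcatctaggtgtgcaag
The peak in the Satb1 domain was 46.0 kb from a Satb1 start, and the one beside Rasgrp1 was 98.2 kb from the Rasgrp1 start. Both were intergenic.

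The counts of Santa Cruz peaks per bin formed one continuous tail, without a gap at the threshold of 5. A total of 14787 bins held no Santa Cruz peak, 5709 held 1, 2353 held 2, 1074 held 3 and 476 held 4, just outside the threshold. Just inside it, 213 bins held 5 and 78 held 6. Only 41 bins held 7 or more, and the highest count was 11, reached by 2 bins. The median gap between neighbouring Santa Cruz peaks was 10.7 kb within dense bins and 55.8 kb over the whole of chromosomes 1 to 19. In dense bins 8.95% of these gaps were under 1 kb, so part of the clustering came from peaks close together. When peaks under 1 kb apart were counted as 1, a choice made after the data were seen, 260 bins with 1431 merged peaks passed the threshold.

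**Figure D1:**
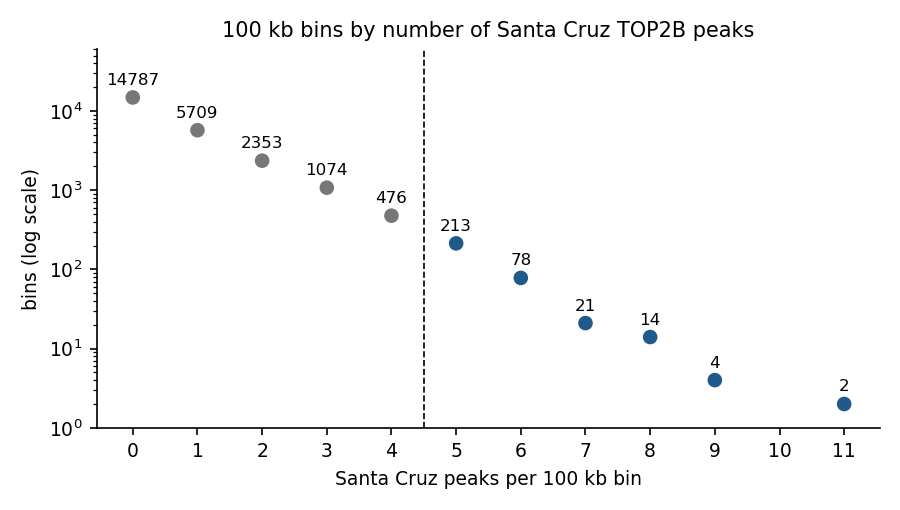
Number of 100 kb bins (vertical axis, log scale) by the number of Santa Cruz TOP2B peaks they hold (horizontal axis), with the dashed line at the threshold of 5 peaks. Bin numbers fall steadily from 14787 without a peak to 2 with 11 peaks, and 213 bins sit just inside the threshold beside 476 with 4 peaks.

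Dense bins were present on every chromosome from 1 to 19. Chromosome 11 had the most, 38 bins or 3.12% of its length in bins, and chromosome 14 had the lowest share, 0.879% (11 bins). Chromosome 11 also had 13.6 coding gene starts per Mb, against 7.61 per Mb on chromosome 14. The order did not hold on every chromosome. Chromosome 7 had 13.6 starts per Mb and 1.44% dense bins, and chromosome 13 had 7.20 starts per Mb and 1.91%.

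The Novus list had no part in the choice of the bins, and it was denser in them. Of the 332 dense bins, 169 held at least 1 Novus peak (50.9%, interval 45.4 to 56.4%), against 11.9% of all bins and 11.4% of the bins that were not dense. A total of 69 dense bins held at least 2 Novus peaks, 10 held at least 3, and no dense bin held more than 4. Dense bins carried 251 of the 3508 Novus peaks on chromosomes 1 to 19 (7.16%, interval 6.32 to 8.06%), or 7.56 peaks per Mb against 1.34 per Mb elsewhere. The ratio of these densities was 5.66 (interval 4.96 to 6.44). The 130 Novus peaks of dense bins that did not overlap any Santa Cruz peak had a density of 3.92 per Mb, against 0.982 per Mb elsewhere, a ratio of 3.99 (interval 3.32 to 4.76). Part of these 130 lay close to a Santa Cruz peak. With both lists extended by 1 kb, 175 of the 251 Novus peaks in dense bins met one (69.7%), against 39.0% elsewhere.

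Novus peaks per bin rose with the Santa Cruz count up to 6 peaks, across the threshold, and were no higher in bins with 7 or more. Bins without a Santa Cruz peak averaged 0.0433 Novus peaks, and bins with 4 averaged 0.626 (interval 0.557 to 0.701). Bins with 5 averaged 0.718 (0.609 to 0.842), bins with 6 averaged 0.885 (0.688 to 1.12) and bins with 7 or more averaged 0.707 (0.474 to 1.02). The intervals from 4 peaks upwards overlap, which does not show that these classes are alike, and the differences between them were not tested. Both bins with 11 Santa Cruz peaks were without a Novus peak.

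**Figure D2:**
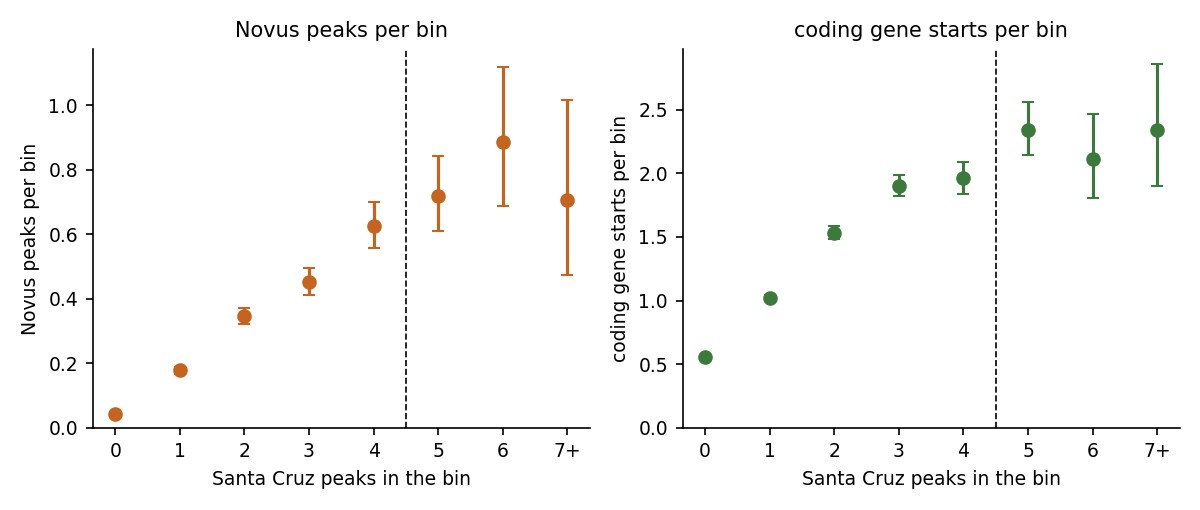
Novus peaks per 100 kb bin (left) and starts of protein-coding genes per bin (right) by the number of Santa Cruz peaks in the bin (horizontal axes). Points are means over bins, bars are exact 95% Poisson intervals and the dashed lines mark the threshold; Novus peaks go from 0.0433 per bin without Santa Cruz peaks to 0.718 with 5, and gene starts from 0.559 to 2.34.

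Novus peaks were also more frequent beside the dense bins than farther away. Bins next to a dense bin that were not dense themselves averaged 0.430 Novus peaks (interval 0.380 to 0.485), against 0.756 (0.665 to 0.856) in the dense bins. The mean was 0.300 at 200 kb, 0.189 at 1000 kb and 0.165 at 2000 kb. Coding gene starts moved the same way, from 2.29 per bin in the dense bins to 1.85 next to them and 1.14 at 2000 kb.

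**Figure D3:**
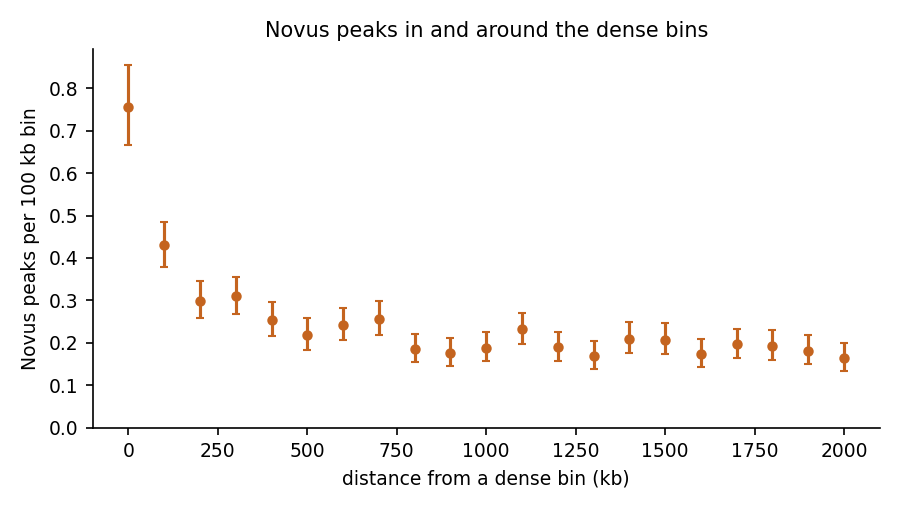
Novus TOP2B peaks per 100 kb bin (vertical axis) by distance from a dense bin in kb (horizontal axis), with exact 95% Poisson intervals as bars and dense bins left out beyond 0 kb. The mean is 0.756 in dense bins, 0.430 in the bins beside them and between 0.165 and 0.310 from 200 to 2000 kb.

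At the level of single peaks, most Santa Cruz peaks in dense bins were not shared with the Novus list. Of the 1850, 123 overlapped a Novus peak by at least 1 bp (6.65%, interval 5.56 to 7.88%). The share was 5.70% over all Santa Cruz peaks of chromosomes 1 to 19 and 5.59% (5.24 to 5.96%) outside the dense bins, and these intervals overlap. Seen from the Novus list, 121 of the 251 peaks in dense bins overlapped a Santa Cruz peak (48.2%, interval 41.9 to 54.6%), against 26.5% (24.96 to 28.0%) elsewhere. Santa Cruz peaks covered 1.04% of the length of dense bins and 0.119% of the rest, which follows from the choice of bins, and the part this plays in the Novus share was not tested. Of the 308 domains, 164 held a Novus peak, 108 held a shared peak and 144 held no Novus peak.

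Dense bins held more genes than the rest of the genome. They contained the starts of 760 protein-coding genes, 22.9 per Mb against 8.47 per Mb elsewhere, a ratio of 2.70 (interval 2.51 to 2.91). Of the dense bins, 64 (19.3%) held no coding start, whereas 58.2% of the other bins held none. The median GC content was 46.7% in dense bins and 41.4% in the rest. Gene content, GC and Novus density were thus all higher in dense bins than in the rest, and the part of the first 2 in the third was not tested. Within the dense bins, Novus peaks per bin went down with GC, from 1.08 at 40 to 45% to 0.556 at 50% or more. In the other bins they went up, from 0.171 to 0.267 for the same classes. Among bins with 4 or more coding starts, dense bins averaged 0.722 Novus peaks against 0.296 in other bins, a ratio of 2.44 (1.79 to 3.26). With 2 or 3 starts the ratio was 2.43 (1.88 to 3.09), and with 1 start it was 3.61 (2.77 to 4.64). Among bins without any coding start it was 17.2 (13.2 to 22.3), from 1 Novus peak per dense bin against 0.0580. Within GC classes the ratio was 46.4 (16.9 to 102) under 40% GC, where it rests on 4 dense bins with 6 Novus peaks, 6.31 (5.09 to 7.74) from 40 to 45% GC, 2.53 (2.08 to 3.07) from 45 to 50% and 2.08 (1.37 to 3.06) at 50% or more.

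With the reported bins, Santa Cruz peaks of dense bins were near a gene start in about the same share as the others. They were between genes in a lower share. A total of 297 of 1850 centres lay within 1 kb of a coding transcript start (16.1%, interval 14.4 to 17.8%), against 15.3% of all Santa Cruz peaks. Introns held 758 (41.0%), other exons 80 (4.32%) and the space between genes 715 (38.6%, interval 36.4 to 40.9%). Outside the dense bins, 39.5% were intronic and 42.3% (41.5 to 43.1%) intergenic. The median distance to a coding start was 11.4 kb in dense bins and 20.2 kb elsewhere, where gene starts were also sparser. The Novus peaks of dense bins were near a start in 21.9% of cases (17.0 to 27.5%), against 30.1% (28.5 to 31.7%) of the other Novus peaks. The 123 shared Santa Cruz peaks of dense bins were intergenic in 50.4% of cases (41.2 to 59.5%), against 37.8% (35.5 to 40.1%) of those found with Santa Cruz alone. On chromosome 8, 27 dense-bin peaks lay in Gm20388, an annotated span of 4435 kb that covers many other genes, and counted as genic for that reason alone where no other gene held them.

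Short motifs were searched on both strands of the 187 bp peaks and, for background, in all 187 bp windows of chromosomes 1 to 19. The CTCF core was present in 9.89% of dense-bin peaks (8.57 to 11.3%), in 9.10% of the other Santa Cruz peaks and in 1.48% of windows. It was present in 22 of the 123 shared peaks of dense bins (17.9%, 11.6 to 25.8%) and in 9.32% (7.99 to 10.8%) of the dense-bin peaks found with Santa Cruz alone. The ETS-type sequence CAGGAAG occurred in 12.2% of dense-bin peaks (10.8 to 13.8%), 9.42% (8.97 to 9.89%) of the others and 5.91% of windows. The RUNX-type sequence TGTGGT occurred in 18.3% (16.6 to 20.2%), 15.3% (14.7 to 15.8%) and 13.1%, and the E-box CAGCTG in 13.03% (11.5 to 14.6%), 11.2% and 6.90%. The TCF/LEF-type sequence CTTTGA occurred in 13.8%, 12.7% and 14.5%, and the GATA-type sequence AGATAA in 7.78%, 8.93% and 12.4%. The median GC of the peaks was 50.3% in dense bins, 48.1% elsewhere and 41.7% in windows, and its part in these shares was not tested. A match to these letters is no evidence of a bound factor.

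The domain with the most Santa Cruz peaks, 19 in 2 bins (11 and 8) at chr16:10700001-10900000, held no Novus peak. It spans the end of Clec16a, a gene of endosomal and autophagic trafficking, then Socs1, the suppressor of cytokine receptor signalling, and the sperm chromatin genes Tnp2, Prm3, Prm2 and Prm1, followed by Gm10343, Gm11172 and A630055G03Rik. Near a start were 5 of its peaks, among them one 0.390 kb inside Socs1 and one 0.146 kb inside Tnp2. A further 6 lay in the final introns and exons of Clec16a. The nearest Novus peak was 220.0 kb from the Socs1 start.

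The domain with 3 bins, chr12:74500001-74800000, held 15 Santa Cruz peaks, 5 in each bin, and 3 Novus peaks. It runs from D830013O20Rik across Tmem30b into Prkch, which encodes protein kinase C eta. None of the 15 peaks was near a start, 7 were intronic and 8 intergenic. The shared peak with the CTCF core shown above is the seventh of them along the domain, 136 kb from its left edge.

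Another 4 domains with 13 or 14 peaks held 1 or 2 Novus peaks each. The Prex1 domain, at chr2:166300001-166500000, had 14 Santa Cruz and 2 Novus peaks. Prex1 encodes an exchange factor for the small GTPase Rac, and 9 of the 14 peaks lay in its introns. The domain at chr11:54600001-54800000 had 14 and 1, over Cdc42se2, a Cdc42 effector, Lyrm7, Hint1, the glutathione peroxidase Gpx3, the NF-κB regulator Tnip1 and Anxa6. The Ets2 domain, at chr16:95900001-96100000, had 14 peaks (9 and 5) and 1 Novus peak. Ets2, an ETS-family transcription factor, had 1 peak 0.107 kb from its start and another 1.35 kb from an annotated start, while 12 of the 14 were intergenic, nearly all downstream of the gene. The Dusp5 domain, at chr19:53500001-53700000, had 13 and 1. Its genes are Dusp5, a nuclear phosphatase of the MAP kinase ERK, Nutf2-ps1 and Smc3, a cohesin ring subunit, whose start had a Santa Cruz peak 0.055 kb upstream.

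The other 3 domains with 13 peaks held no Novus peak. The one at chr1:193200001-193400000 covers Ppp2r5a, a regulatory subunit of protein phosphatase 2A, Dtl, a replication-coupled ubiquitin ligase subunit, and the Integrator subunit Ints7. The starts of Dtl and Ints7 are divergent, and 1 peak lay 0.325 kb upstream of Dtl and 0.096 kb inside Ints7. The one at chr2:32300001-32500000 held 10 genes, among them Slc25a25, Naif1, Fam102a, Dpm2, Pip5kl1, St6galnac4, St6galnac6 and Ak1, of which Fam102a had 4 peaks in the gene and another 0.268 kb upstream of its start. The one at chr5:124400001-124600000 covers Ccdc62, Hip1r, the ESCRT component Vps37b, Abcb9, Ogfod2, Arl6ip4 and Pitpnm2, with 9 of 13 peaks in introns.

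The tenth domain had the most Novus peaks of the 10. At chr17:34200001-34400000, in the major histocompatibility complex, 12 Santa Cruz peaks lay beside 7 Novus peaks, and 4 Santa Cruz peaks were shared, against no more than 3 Novus peaks in any of the 9 domains ranked above it. Its genes load antigens onto MHC molecules. H2-Oa, H2-Ob, H2-DMa, H2-DMb1 and H2-DMb2 encode class II chaperones, Psmb8 and Psmb9 encode immunoproteasome subunits, and Tap1 and Tap2 form the peptide transporter. Brd2, a bromodomain protein gene, and Col11a2 are also in it. Near a start were 6 of the 12 Santa Cruz peaks. H2-DMa had a Santa Cruz peak 0.184 kb and a Novus peak 0.205 kb inside its start, and these overlapped. At the divergent starts of Psmb9 and Tap1 there was a Santa Cruz peak 0.057 kb inside Tap1, and a Novus peak centred 0.033 kb from an annotated Psmb9 start, which did not overlap it. The zero-mismatch CTCF core printed above belongs to the shared peak between H2-Oa and Brd2.

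Among the single bins with the most peaks, the first at chr5:149800001-149900000 held 11 Santa Cruz peaks and no Novus peak. It contains Hmgb1, whose chromatin protein also assists the RAG recombinase in cutting DNA, and the start of Katnal1. Of the 11 peaks, 2 were near annotated Hmgb1 starts and 9 were intergenic. The bin at chr4:133300001-133400000 held 9 peaks and 3 Novus peaks at the start of Arid1a, a subunit of the SWI/SNF chromatin remodeller, with a Santa Cruz peak 0.260 kb and a Novus peak 0.680 kb upstream of that start. The bin at chr8:125200001-125300000 held 9 and 0, at Cbfa2t3, a transcriptional corepressor, Acsf3 and the long Gm20388. A total of 14 bins held 8 peaks, and only those first in genome order are named here. They lay at Spsb1, a ubiquitin ligase adaptor (0 Novus peaks), at Chrna9, a nicotinic receptor subunit, with 9130230L23Rik (1 Novus peak), and at chr2:117200001-117300000, where no coding gene lies.

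**Figure D4:**
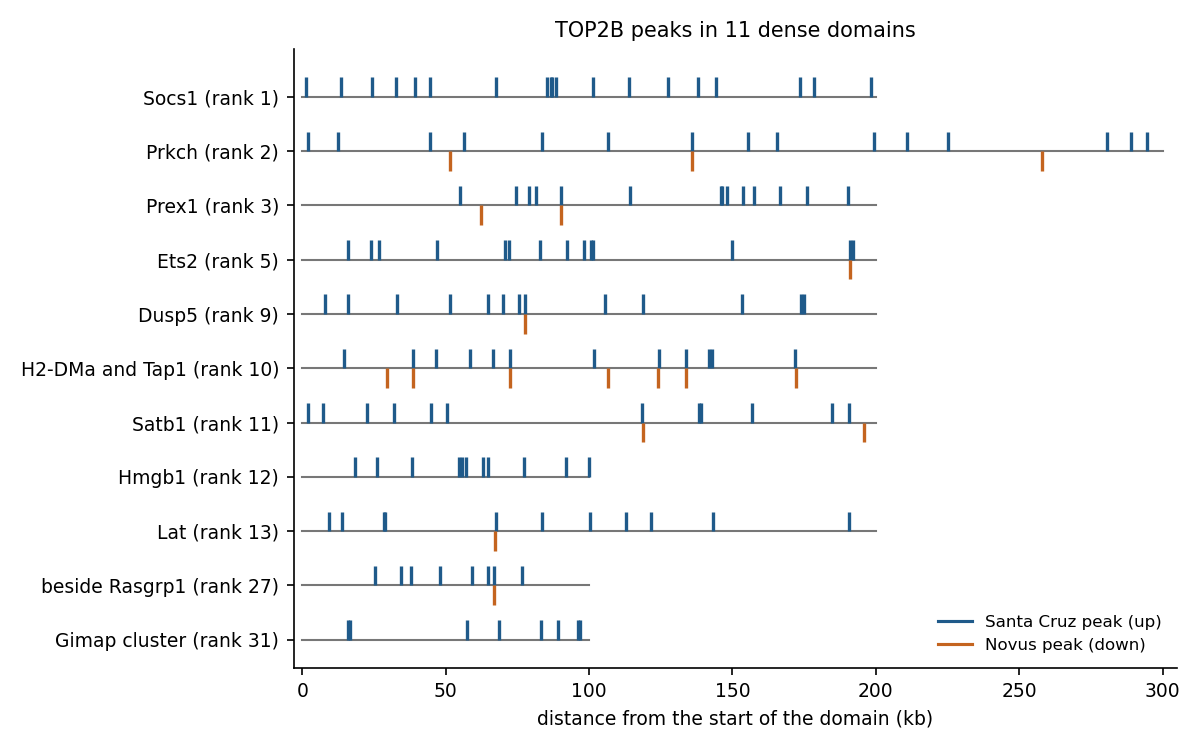
Positions of Santa Cruz peaks (upward ticks) and Novus peaks (downward ticks) along 11 dense domains, in kb from the start of each domain, with the grey line giving its length and the label its rank by Santa Cruz peaks. These domains were picked for display after their values were seen; the Socs1, Hmgb1 and Gimap domains show no Novus tick, and the H2-DMa and Tap1 domain shows 7.

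The T-cell loci were read from lists of 118 genes, of which 115 were placed on chromosomes 1 to 19. The gene lists were chosen with earlier results of these data known, so the shares are a description and not a test. A total of 30 of the 115 started in a dense bin (26.1%, interval 18.3 to 35.1%), against 3.55% of all 21418 protein-coding genes. Because neighbouring genes such as the Gimap family share a bin, the count was also made over bins. Then 24 of 108 bins with a list gene were dense (22.2%), against 268 of 10476 bins with any coding start (2.56%). In lists for other cell types, 2 of 71 genes started in a dense bin (2.82%, interval 0.343 to 9.81%). One of these was G6pc of the liver list. None of the 15 myeloid genes and none of the 21 neuronal genes did, which allows shares of up to 21.8% and 16.1%. High shares were not limited to the T-cell lists. Clustered histone genes (14 of 67, 20.9%) and Hox genes (10 of 39, 25.6%), which share bins, had similar ones.

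The 24 domains that hold the 30 T-cell genes had 160 Santa Cruz and 17 Novus peaks. Novus peaks were found in 12 of the 24 (50%, interval 29.1 to 70.9%), and over all domains in 53.2% (47.5 to 58.9%), and these intervals overlap. Of the 30 genes, 18 had a Santa Cruz peak within 1 kb of the gene start. The bins were chosen by these same peaks and the share among other genes was not computed, so this count only describes the genes.

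**Figure D5:**
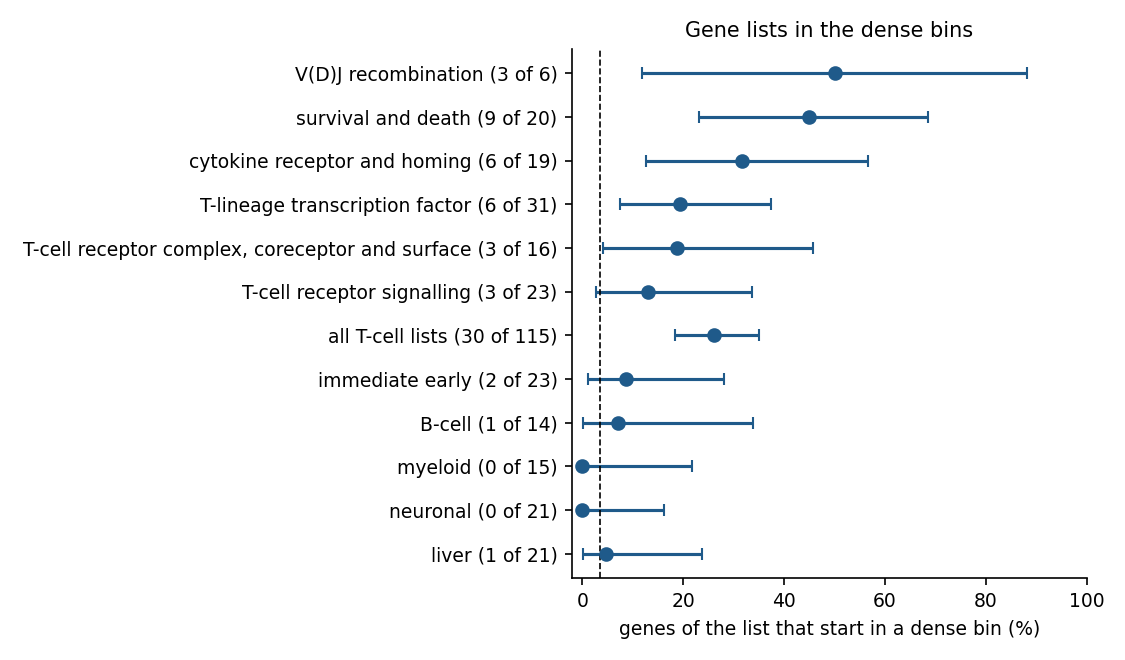
Share of the genes of each list that start in a dense bin, in percent (horizontal axis), with exact 95% binomial intervals as bars and the number of genes beside each name. The dashed line is the 3.55% of all protein-coding genes; all T-cell lists together lie at 26.1%, and the T-cell receptor signalling, immediate early, B-cell, myeloid, neuronal and liver lists have intervals that include the line.

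In the list for the receptor complex and surface molecules, 3 of 16 genes started in dense bins. Cd247 encodes the zeta chain of the T-cell receptor complex and had 4 Santa Cruz peaks within the gene, the nearest 1.29 kb from its start, in a bin of 5 without a Novus peak. Ptprc, the CD45 phosphatase gene, had a Santa Cruz peak 0.183 kb inside its start and a shared peak in an intron, in a bin of 6 Santa Cruz and 2 Novus peaks. The bin of the costimulatory receptor gene Cd27 held 5 peaks, none of them within Cd27, and no Novus peak.

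In the V(D)J recombination list, 3 of 6 genes started in dense bins. Rag1 and Rag2, which encode the recombinase, share a bin of 5 Santa Cruz peaks and 1 Novus peak. One Santa Cruz peak lay 0.910 kb inside Rag2, and the one nearest to Rag1 lay 2.73 kb upstream of its start. The third gene is Hmgb1, in the bin of 11.

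Among T-lineage transcription factors, 6 of 31 started in dense bins. Satb1, a chromatin organiser of thymocytes, had 8 Santa Cruz peaks and 1 Novus peak in the gene, but none within 1 kb of its outermost start, the nearest being 22.0 kb away. Its domain, at chr17:51900001-52100000, held 12 Santa Cruz and 2 Novus peaks, with 6 in introns and 6 in the flank upstream of the gene. Bach2, a repressor that restrains effector differentiation, had 7 Santa Cruz and 3 Novus peaks in the gene, with a Santa Cruz peak 0.533 kb inside its start. The dense bin of the Bach2 start held 6 Santa Cruz peaks and 1 Novus peak. Nfatc3, a calcium-activated factor, had 5 Santa Cruz peaks in the gene, and its bin held 6 Santa Cruz and 2 Novus peaks. Nfatc1 and Fli1 lay in bins of 5 without Novus peaks, and Ets2 in a bin of 9 without one.

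In T-cell receptor signalling, 3 of 23 genes started in dense bins (13.04%, interval 2.78 to 33.6%), and the 3.55% of all coding genes lies within that interval. Zap70, the kinase recruited to the receptor, had a Santa Cruz peak 0.145 kb upstream of its start in a bin of 5. Lat, the membrane adaptor that the kinase phosphorylates, had one 0.213 kb inside its start, in a domain of 11 Santa Cruz peaks and 1 Novus peak. No Novus peak lay within 1 kb of the start of either.

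In the cytokine receptor and homing list, 6 of 19 genes started in dense bins. Ccr7, the chemokine receptor for entry into lymphoid tissue, had a peak 0.132 kb upstream of its start in a bin of 8 without a Novus peak. Tgfbr2, the TGF-β receptor gene, had 5 peaks in the gene and 2 near its start. Klf2, a factor that controls thymocyte exit, had one 0.201 kb inside its start. Il21r had 3 in the gene, the nearest 2.55 kb from its start, and the bin of Il6st held 5, the nearest 34.7 kb from its start.

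In the survival and death list, 9 of 20 genes started in dense bins, and 6 of the 9 were Gimap genes of a single bin on chromosome 6. Gimap genes encode GTPases of lymphocyte survival. That bin held 8 Santa Cruz peaks and no Novus peak, with Santa Cruz peaks near the starts of Gimap1, Gimap5, Gimap6 and Gimap7 and none near those of Gimap4 and Gimap9. Bcl2, the anti-apoptotic gene, had 4 Santa Cruz peaks and 2 Novus peaks in the gene, the nearest Santa Cruz peak 1.42 kb inside its start. The dense bin of the Bcl2 start held 5 Santa Cruz peaks and no Novus peak, so both Novus peaks lay outside that bin. Bbc3, a pro-apoptotic gene, had one 0.308 kb inside its start in a bin of 8, and Bak1 had none nearer than 4.00 kb in a bin of 5 Santa Cruz and 2 Novus peaks.

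Immediate early genes were in dense bins in 2 of 23 cases (8.70%, interval 1.07 to 28.0%), Dusp5 and the survival gene Ier3. At the edge of the rule, 16 T-cell list genes started in bins with exactly 4 Santa Cruz peaks, among them Cd4, Cd8a, Cd5, Thy1, Notch1, Runx1, Ets1, Myb, Lcp2 and Rasgrp1. A further 29 started in bins with 3 and 7 in bins with none.

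A small group of dense bins lay outside coding genes. In 22 of the 332 no protein-coding gene overlapped the bin, and these held 126 Santa Cruz and 21 Novus peaks. Novus peaks were found in 16 of the 22, on average 0.955 per bin. Several flank genes of lymphocyte biology, named here after their positions were seen. The bin of 8 Santa Cruz peaks on chromosome 2 begins 31.3 kb upstream of Rasgrp1, an activator of Ras downstream of the T-cell receptor, and contains a shared peak. A bin of 6 on chromosome 1 begins 0.486 kb beyond the end of Dusp10, a phosphatase of stress-activated kinases, and one of 5 on chromosome 3 ends 13.4 kb from S1pr1, the receptor for exit from the thymus. A bin of 5 on chromosome 10 lies between Myb and Hbs1l, 19.2 kb and 15.8 kb from them, and one of 6 on chromosome 3 ends 113 kb before Lef1, a T-lineage transcription factor. The flanks of Ets2, Satb1 and Dusp5 described above also gave bins of this kind.

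Some genes carried runs of these peaks. Genes were ranked by their raw number of peaks, and its relation to gene length was not tested. Apart from Gm20388, the genes with the most dense-bin Santa Cruz peaks were Clec16a and Ldlrad3 with 10 each, Prex1 with 9 and Rreb1, a zinc finger transcription factor gene, with 8. Over their whole length these 4 genes held 12, 13, 12 and 9 Santa Cruz peaks and 1, 0, 0 and 0 Novus peaks. Ssbp2 had 7 Santa Cruz peaks in dense bins and 9 over the whole gene, and Akap13 had 6 and 10. Each held 5 Novus peaks over the whole gene, of which 2 were shared. The dense bins at Ssbp2 and Akap13 held 2 and 3 Novus peaks.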

How the data were processed

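Peak lists of the Santa Cruz and Novus TOP2B libraries were used as deposited. Per the labels and the study's methods, the authors aligned tags to mm9 with Bowtie 1.2.0 and called factor-style peaks with HOMER in each library, keeping those at least 10-fold over IgG. For more confidence, the study's own TOP2B set kept only peaks found with both antibodies. That step was not taken here, so most Santa Cruz peaks described are outside that set. The score column deposited by the authors is 0 in every row, so peak heights and the depth behind a peak are unknown, and the only values used are positions. Peaks were 187 bp (Santa Cruz) or 195 bp (Novus) wide and were assigned to bins by their centre. Genes were taken from GENCODE M1 on the mm9 (NCBIM37) genome and sequences from that genome. A gene was placed by its outermost start. Analyses used Python 3.11.15 with scipy 1.17.1, pandas 2.3.3 and samtools 1.23.1, and were tested on simulated peaks. Shares have Clopper-Pearson intervals, density ratios exact conditional binomial intervals, and no p-value was computed. Domains were ranked by their number of Santa Cruz peaks. Named are the coding genes of the 10 domains and 10 single bins with the most peaks and the T-cell list genes starting in dense bins; other names were chosen after their values were seen, and a few items are not reported here. Members and gene lists were chosen with earlier results of these data known. Alternatives changed the threshold, bin width and offset, overlap, start distance and gene set.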

Additional observations from a re-analysis of the deposited data

How the results depend on the processing

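No paired analysis was possible because each antibody has 1 library. In all, 38 alternative values were computed, of which 26 stayed within the interval of the reported value and 12 moved outside it. The Novus density ratio stayed between 5.02 and 6.22 throughout. The share of T-cell list genes was 40% with 4 or more peaks per bin, 36.5% with 50 kb bins of 3 or more, 9.57% with 200 kb bins of 10 or more and 8.70% with 7 or more, while the share of all coding genes was 7.91%, 5.36%, 0.780% and 0.448%. The share of dense-bin Santa Cruz peaks overlapping a Novus peak was 5.05% with 7 or more peaks per bin, there below the 5.72% elsewhere and so in the opposite order to the reported shares, 3.95% where the shared stretch had to reach 50% of each peak (3.47% elsewhere) and 11.2% with both lists extended by 1 kb (8.69% elsewhere). The gene start ratio was 2.42 both with 200 kb bins and with all annotated genes. The share near a start was 18.2% with 200 kb bins, 18.4% with 50 kb bins and 23.8% within 2.5 kb of a start (15.2%, 14.5% and 20.2% elsewhere). It was 17.2% with 4 or more peaks per bin and 17.4% with shifted bins (14.8% and 15.0% elsewhere). With 7 or more peaks per bin it was 15.8%, and with peaks under 1 kb apart counted as 1 it was 15.0% (15.3% and 14.8% elsewhere). The near equality in the reported bins thus depended on the setting. Counting peaks under 1 kb apart as 1, or genes of one bin as 1, both added after the data were seen, gave 20% and 22.2% of T-cell list genes, within the interval. The lists give neither heights nor read depth, so weak and strong peaks count alike.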

Other observations

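Gene families outside the T-cell lists differed in how often they started in dense bins. Of 1106 olfactory receptor genes, 1 did, and of 326 vomeronasal receptor genes, none did. Of 67 clustered histone genes, 14 did (20.9%, interval 11.9 to 32.6%), 12 of them Hist1 genes. Of 39 Hox genes, 10 did (25.6%, 13.04 to 42.1%), and all 10 belong to the Hoxa cluster. Ribosomal protein genes did so in 2 of 75 cases (2.67%) and zinc finger genes of the Zfp series in 11 of 358 (3.07%), near the 3.55% of all protein-coding genes. Genes of a cluster share bins, so these intervals are too narrow. On the X chromosome, outside the bins described, 363 Santa Cruz peaks gave 3 bins with 5 or more, of at most 8.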
